A study of Mus musculus with 4 samples.

Results

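The loci of Pou3f1, Pou3f2 and Pou3f3, genes of the class III POU family of neural transcription factors, were described in 4 ChIP-seq peak lists. Their members were all peaks whose summit lay in 3 windows of the mouse build mm9. The Pou3f1 window ran from 124230000 to 124440000 on chromosome 4, the Pou3f2 window from 22200000 to 22620000 on chromosome 4, and the Pou3f3 window from 42600000 to 42900000 on chromosome 1. They held 21 of the 125574 deposited peaks, of which 17 lay in the Pou3f1 window, 4 in the Pou3f2 window and 0 in the Pou3f3 window.

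ChIP-seq, which sequences the DNA that an antibody brings down with a protein, was done on cells like neural progenitors that were derived from 129/SvJ mouse embryonic stem cells, with the passage number given as 15 to 18. The cells were expanded with EGF and FGF-2 at 10 ng/ml each and fixed in 1% formaldehyde for 10 min. The M2 antibody against the FLAG tag was used on 3 libraries, titled with F-Pax6, F-Etv6 and EGFP_OK, and 1 library was made with an antibody to H3K4me2, the dimethyl form of lysine 4 on histone H3. The Pax6 and Etv6 titles carry the name NS. The EGFP_OK and H3K4me2 titles carry N31, and that of H3K4me2 also names Oct4, EGFP and 0 hr. Which tagged protein the EGFP_OK library holds, what drove the tagged proteins and whether the libraries share 1 line of cells are not given in the sources used here. Each group was 1 library with no control library, so there is no replicate error and no test between libraries. The duplicate-filtered depths were 5288154 tags for Pax6, 24071748 for Etv6, 21498324 for EGFP_OK and 24550365 for H3K4me2.

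Class III POU factors carry a POU-specific domain and a POU homeodomain, and bind octamer-like DNA elements, often beside SOX factors. Pou3f1 (Oct6, also Tst1 or Scip) acts in early neural commitment and later in myelinating Schwann cells. Pou3f2 (Brn2) and Pou3f3 (Brn1) act in part redundantly in neural precursors and in the upper layers of the cortex, and Brn2 is used in mixtures of factors that convert fibroblasts to neurons. Pax6 is a paired-domain and homeodomain factor of the eye and forebrain, and Etv6 is an ETS-family repressor. H3K4me2 marks active and poised promoters and enhancers.

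Reference promoters are shown first, for Pou3f2 and Pou3f3 only, since none was matched for Pou3f1. RefSeq promoters of 300 bases (250 before to 50 after the start) were matched by symbol for 2 of the 3 members. That of Pou3f2 is chr4:22488317-22488616 on the minus strand and that of Pou3f3 is chr1:42695518-42695817 on the plus strand, both in GRCm38.p6. These positions are of another build than the peaks and were not placed among them. Capitals mark the letters CCGGAAG, an ETS-type motif, and CCAAT, on the plus strand of the gene.
Pou3f2: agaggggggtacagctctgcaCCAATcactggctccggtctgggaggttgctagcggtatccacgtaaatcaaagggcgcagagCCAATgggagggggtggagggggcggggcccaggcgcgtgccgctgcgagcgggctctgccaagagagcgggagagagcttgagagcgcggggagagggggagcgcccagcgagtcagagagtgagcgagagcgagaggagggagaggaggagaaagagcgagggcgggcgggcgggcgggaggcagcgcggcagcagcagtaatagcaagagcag
Pou3f3: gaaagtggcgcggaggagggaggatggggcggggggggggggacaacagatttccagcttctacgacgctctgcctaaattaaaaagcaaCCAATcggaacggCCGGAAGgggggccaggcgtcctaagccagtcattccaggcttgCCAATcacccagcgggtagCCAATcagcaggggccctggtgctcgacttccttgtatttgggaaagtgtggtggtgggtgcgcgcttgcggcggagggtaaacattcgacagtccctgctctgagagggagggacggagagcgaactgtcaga
Both promoters were GC-rich, with 67.7% G and C and 24 CpG in Pou3f2 and 60.3% and 18 CpG in Pou3f3, against medians of 52.7% and 7 CpG over 32851 RefSeq promoters. The motifs were searched on both strands. CCGGAAG was found once in Pou3f3, 147 bases before the start, and not in Pou3f2, and 8.86% of all promoters held it. CCAAT, a motif chosen after the sequences were seen, was found at 2 places in Pou3f2 and at 3 in Pou3f3, and 37.4% of all promoters held it. At Pou3f3 the CCAAT letters at 160 bases before the start lay close to CCGGAAG, without overlap. The letters ATGCAAA (from the octamer, in 4.63% of all promoters), TTCACGC (from a paired-domain site, in 1.26%) and TATAAA (in 13.6%) were in neither. Of 12 promoters of 8 other POU genes, 1 held CCGGAAG (Pou2f2) and 3 held CCAAT, namely Pou3f4 and both Pou5f1 promoters. These matches describe letters in reference sequence, not binding.

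The loci differed in how many peaks they held for their length. The Pou3f1 window (210 kb) held 1 Pax6, 4 Etv6, 3 EGFP_OK and 9 H3K4me2 peaks. The Pou3f2 window (420 kb) held no Pax6 or Etv6 peak, 1 EGFP_OK peak and 3 H3K4me2 peaks. The Pou3f3 window (300 kb) held no peak of any list. Per 100 kb, H3K4me2 peaks numbered 4.29 at Pou3f1, 0.714 at Pou3f2 and 0 at Pou3f3, against 1.92 over chromosomes 1 to 19 and X. Etv6 peaks numbered 1.90 per 100 kb at Pou3f1 and 0 at the other loci, against 1.20 in the whole span, and EGFP_OK peaks 1.43, 0.238 and 0, against 1.10. The single Pax6 peak gave 0.476 per 100 kb at Pou3f1, below the 0.645 of the whole span. H3K4me2 peaks covered 10.0% of the Pou3f1 window and 0.819% of the Pou3f2 window, against 3.69% of the whole span.

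**Figure D1:**
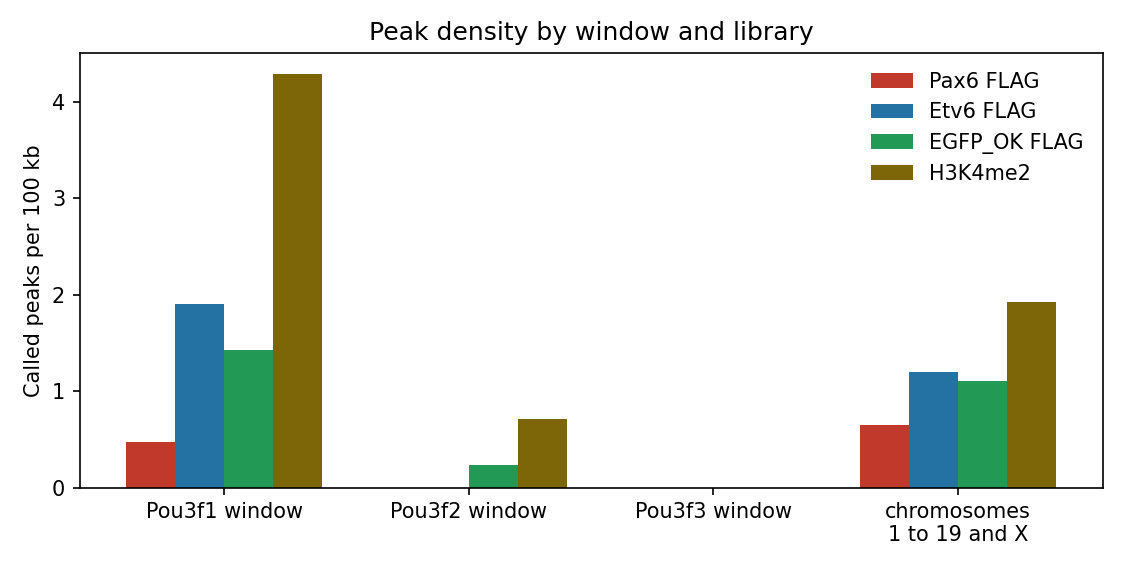
Called peaks per 100 kb (vertical axis) in each window and over chromosomes 1 to 19 and X, with 1 bar per library. H3K4me2 reached 4.29 at Pou3f1, above its 1.92 over the chromosomes, and the Pou3f3 window has no bar because it held 0 peaks.

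These counts were read against all tiles of the same length. At least 9 H3K4me2 peaks were found in 17.1% of the tiles of the Pou3f1 length and at least 8 FLAG peaks in 35.0%, so neither count was rare. At least 3 H3K4me2 peaks were in 67.2% of the tiles of the Pou3f2 length, and at least 1 FLAG peak in 86.8%. No FLAG peak was found in 16.3% of the tiles of the Pou3f3 length, no H3K4me2 peak in 25.5% and no peak of any list in 14.4%. Among these tiles an empty window of that size was therefore common. The tiles were not placed on genes and not limited to mappable sequence, so the shares do not describe gene loci.

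In the Pou3f1 window the FLAG peaks met at 2 sites, both inside H3K4me2 peaks. No gene was placed in the window, so the sites were not assigned to Pou3f1. The first carried all 3 FLAG lists and the second, 5765 bp further along the chromosome by its Etv6 summit, Etv6 and EGFP_OK. Together they took in 5 of the 8 FLAG peaks of the window, and the same 5 were those with a summit in H3K4me2. The count of 5 summits in H3K4me2 was 1 with a score of at least 100 in every list and 0 with 16604 peaks from each list, as the H3K4me2 peaks of both sites ranked below that number. By library, 1 of 1 Pax6, 2 of 4 Etv6 and 2 of 3 EGFP_OK summits lay in H3K4me2, against 43.7%, 51.9% and 26.9% of all summits of these lists and 40.8% of all FLAG summits. Of the 4 Etv6 peaks here 2 overlapped a peak of another FLAG list, as did 49.1% of all Etv6 peaks. Of the 3 EGFP_OK peaks 2 overlapped an Etv6 peak, as did 20.9% of all EGFP_OK peaks. With so few peaks these shares describe the locus and show no difference from the lists.

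**Figure D2:**
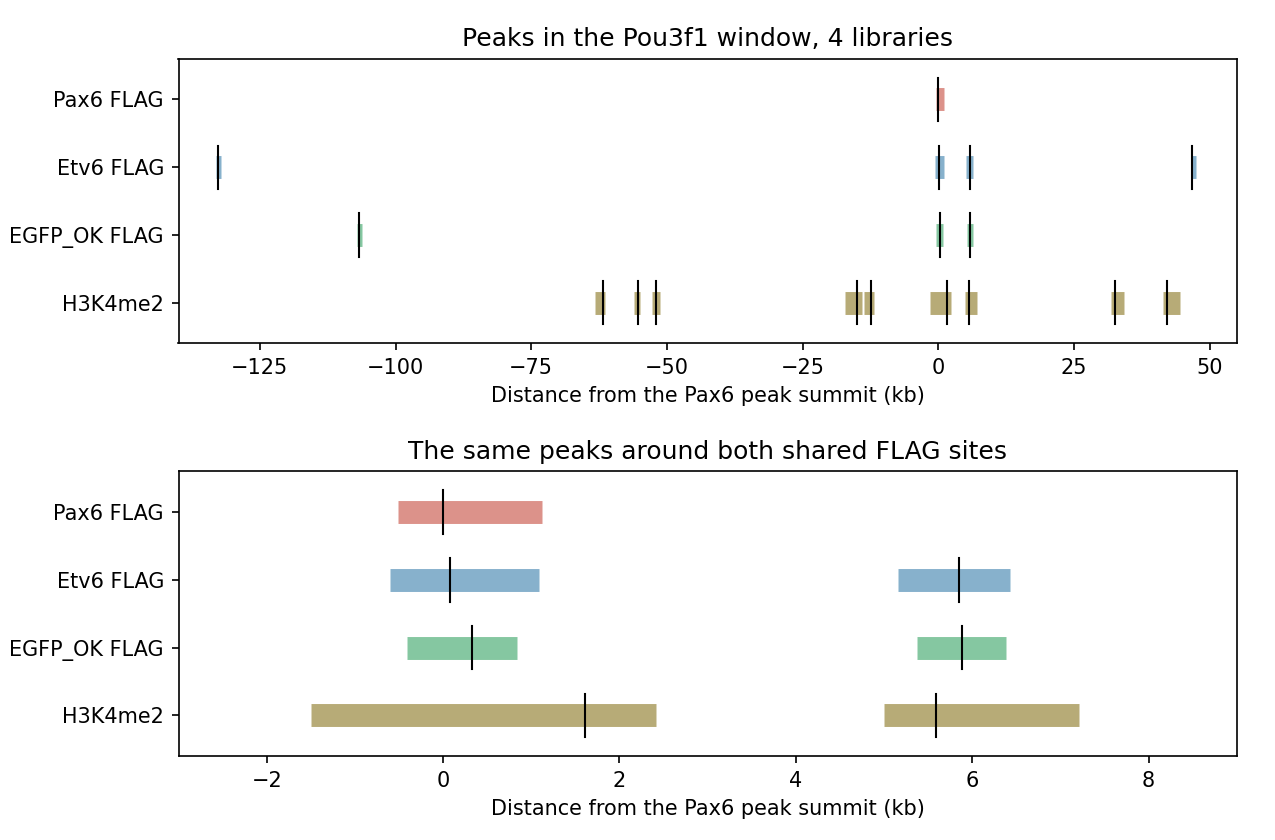
Peaks of the 4 libraries (rows) in the Pou3f1 window, as distance from the Pax6 summit in kb, over the window (upper panel) and around the shared sites (lower panel). Bars are peaks and black lines their summits. The FLAG peaks align at 0 and near 5.85 kb, each over an H3K4me2 peak, and the other H3K4me2 peaks hold no FLAG peak.

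The site of all 3 FLAG lists spanned 124385549 to 124387278 on chromosome 4. Its Pax6 peak had 54 tags (95% counting interval 40.6 to 70.5), a fold enrichment of 9.10 and a score of 168.38, the authors' 10 times −log10 p. It ranked 939 of 16604 Pax6 peaks, within the first 5.66%. Its Etv6 peak had 123 tags (102 to 147), a fold of 5.71 and a score of 203.03, at rank 3913 of 30931. The EGFP_OK peak there had 50 tags (37.1 to 65.9), near its list's median of 47.0. Its fold of 4.77 was below the list's median of 7.04, and its score of 64.56 gave it rank 21616 of 28338. By score, the site stood high in the Pax6 and Etv6 lists and low in the EGFP_OK list. By fold, its Pax6 and Etv6 peaks were also below the medians of their lists, 10.6 and 6.26. Over all Pax6 peaks, 16.6% overlapped a peak of both other FLAG lists.

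The summits of that site lay at 124386154 for Pax6, 124386235 for Etv6 and 124386485 for EGFP_OK. Pax6 and Etv6 were 81 bp apart, near the median of 76.0 bp over 12080 overlapping pairs. The EGFP_OK summit lay 331 bp from that of Pax6 and 250 bp from that of Etv6, farther than the medians of 131 and 130 bp. At least 27.0% and 33.7% of all such pairs were as far apart or farther. Per 1000000 kept tags the Pax6 peak held 10.2 tags (7.67 to 13.3), the Etv6 peak 5.11 (4.25 to 6.10) and the EGFP_OK peak 2.33 (1.73 to 3.07). The 3 intervals did not overlap, but they cover counting error only, and the peaks differ in width and in background. How many other sites of all 3 lists have such separate intervals was not computed. The ratio of Pax6 to Etv6 tags was 0.439, above the median of 0.291 over all overlapping pairs, and 17.4% of those pairs had a ratio as high. The ratio of Pax6 to EGFP_OK tags was 1.08, against a median of 0.375 over 3345 pairs, and 6.04% had a ratio as high. Both medians were themselves above the ratios of kept tags, 0.220 and 0.246. The Pax6 library lost 81% of its tags as duplicates, and the part of this in its scaled values was not tested.

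The second shared site spanned 124391317 to 124392587 on chromosome 4. Its Etv6 peak had 78 tags (61.7 to 97.3), a fold of 9.05 and a score of 172.94, at rank 5465. Its EGFP_OK peak had 36 tags (25.2 to 49.8), a fold of 7.54 and a score of 82.19, at rank 16431. By fold this was the strongest place in the window for both libraries, while by tags the first site was. The summits, at 124392000 and 124392033, were 33 bp apart, and 82.4% of the 5961 overlapping Etv6 and EGFP_OK pairs were at least as far apart. The ratio of Etv6 to EGFP_OK tags was 2.17 here and 2.46 at the first site, against a median of 1.20 over those pairs. Ratios as high were found in 18.2% and 13.6% of those pairs, in that order.

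Pax6 had no called peak at the second site. Scaled by the kept tags of both libraries (ratio 0.220), the 78 Etv6 tags would be 17.1 tags in the Pax6 library, above the 10 tags of its smallest called peak, and 45.6% of called Pax6 peaks had no more tags than that. Scaled from the EGFP_OK peak the value was 8.86 tags, under those 10 tags. Of the 8601 Etv6 peaks with at least 78 tags, 67.4% had a Pax6 partner. A Pax6 signal under the calling limit at this site was not detectable in the list.

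The remaining FLAG peaks of the windows each belonged to 1 list and lay outside H3K4me2. At Pou3f1, Etv6 had one at 124253144 to 124253952, with 27 tags, a fold of 4.97 and rank 29148, and one at 124432654 to 124433569, with 36 tags, a fold of 5.64 and rank 18093. Their summits were 69304 bp and 2376 bp from the nearest H3K4me2 peak, in that order. EGFP_OK had one at 124278976 to 124279885, with 29 tags, a fold of 6.32 and rank 24526, whose summit was 43439 bp from H3K4me2. All had fewer tags than the median peak of their list, which was 54.0 for Etv6 and 47.0 for EGFP_OK. Scaled to the Pax6 depth they come to 5.93, 7.91 and 7.13 tags, under the 10 tags of the smallest Pax6 call. Over all overlapping pairs, the median tag ratio of Pax6 was 0.291 to Etv6 and 0.375 to EGFP_OK. Both were above the kept-tag ratios of 0.220 and 0.246, so the scaling does not settle whether a Pax6 peak was detectable there. Scaled to the other deep FLAG library, the Etv6 peaks come to 24.1 and 32.2 tags in EGFP_OK, whose smallest call had 19, and the EGFP_OK peak to 32.5 tags in Etv6, whose smallest call had 18. Those scaled values reached the fewest tags of a call, and no peak was called. Such absences were common. Of Etv6 peaks with at least 27 and at least 36 tags, 19.5% and 21.0% had an EGFP_OK partner. Of EGFP_OK peaks with at least 29 tags, 21.7% had an Etv6 partner.

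**Figure D3:**
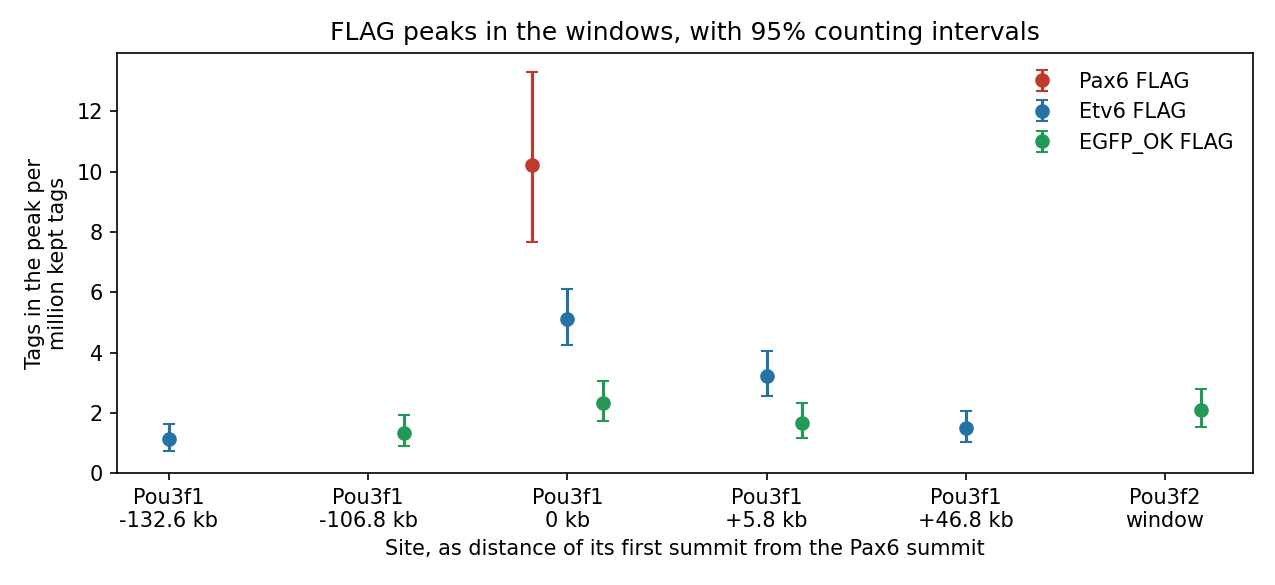
Tags in each FLAG peak of the windows per 1000000 kept tags of its library (vertical axis), with exact Poisson 95% counting intervals, by site. At 0 kb Pax6 had 10.2, Etv6 5.11 and EGFP_OK 2.33, and the peaks of 1 list had between 1.12 and 2.09.

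H3K4me2 at Pou3f1 formed 4 groups of peaks along the window. The first group held 157 tags at 6.56-fold (124322819 to 124324769), 52 tags at 4.03-fold (124330116 to 124331146) and 110 tags at 6.98-fold (124333459 to 124334796). The next held 307 tags at 4.00-fold (124368893 to 124372113) and 197 tags at 3.09-fold (124372431 to 124374284). The third group carried the FLAG sites, with 334 tags at 3.42-fold (124384658 to 124388573) and 241 tags at 6.22-fold (124391150 to 124393365). The last held 247 tags at 9.43-fold (124418003 to 124420331) and 324 tags at 6.71-fold (124427478 to 124430624). The highest score, 597.63 at rank 2261 of 49457, was in the last group, which held no FLAG peak. Of the 9 peaks, 3 were at least 3 kb wide, as were 14.5% of all H3K4me2 peaks.

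FLAG summits were found in 2 of these 9 H3K4me2 peaks, against 40.3% of all H3K4me2 peaks. Summits of all 3 FLAG lists together were in 4.01% of all H3K4me2 peaks and in 13.1% of those of 3 kb or more, and Etv6 and EGFP_OK without Pax6 in 4.82%. The peak with all 3 was the widest of the window, at 3916 bp, and had the most tags, 334 (interval 299 to 372). Yet its score of 56.66 was the lowest of the window, at rank 46969. Of the 6378 H3K4me2 peaks with at least as many tags, 1.10% scored as low or lower, and 11.1% had as low a fold. It was not alone in this, since the same share by score was 1.74% for the 52-tag peak and 2.09% for the 197-tag peak of the window, which held no FLAG summit. The median of the 1983 H3K4me2 peaks with all 3 FLAG summits was a score of 258 with 279 tags. The peak caller judged each peak against a regional background of up to 10 kb from the same library, and the part of this in the score was not tested. The nearest other H3K4me2 summit was 3980 bp away.

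**Figure D4:**
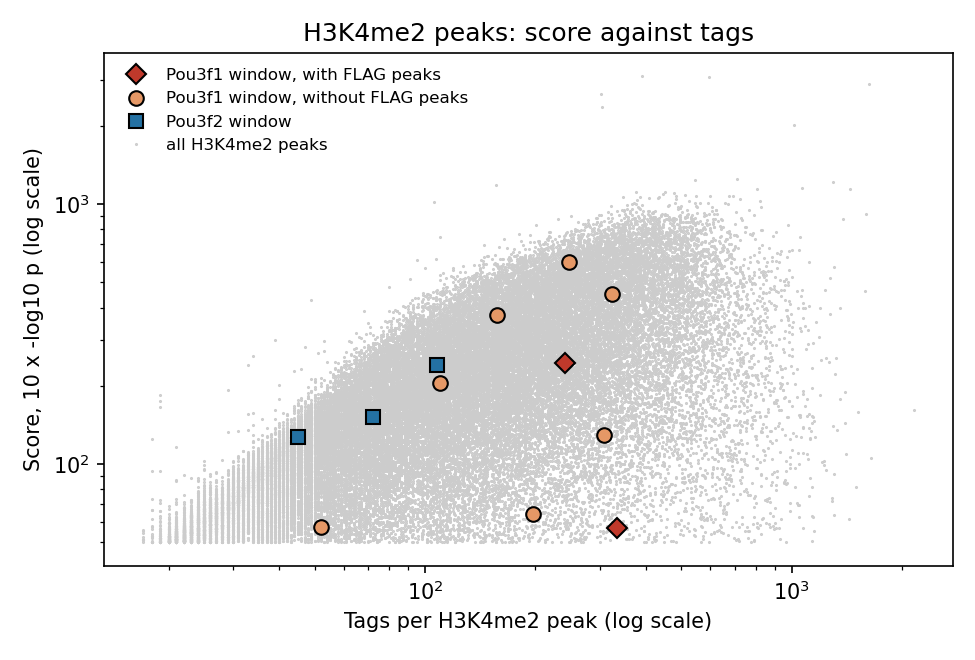
Score (vertical, log scale) against tags (horizontal, log scale) of all H3K4me2 peaks in grey, with those of the Pou3f1 and Pou3f2 windows marked. The peak under the site of all 3 FLAG lists, at 334 tags and a score of 56.66, sits at the lower edge of peaks with as many tags.

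The FLAG summits lay away from the H3K4me2 summit at the first site and near it at the second. At the first, Pax6, Etv6 and EGFP_OK summits were 1612, 1531 and 1281 bp from the H3K4me2 summit, against medians of 371, 345 and 367 bp over all FLAG summits in H3K4me2. That peak was wide, and in H3K4me2 peaks of at least 3 kb the medians were 541, 543 and 590 bp. In such wide peaks, 11.8% of Pax6 summits, 13.5% of Etv6 summits and 496 of 2478 EGFP_OK summits were as far or farther. At the second site the distances were 254 bp for Etv6 and 287 bp for EGFP_OK, below the medians.

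At Pou3f2 the peaks were few, and none of Pax6 or Etv6 was called. H3K4me2 had neighbouring peaks of 72 tags (6.21-fold, 22283631 to 22284675) and 108 tags (7.18-fold, 22284811 to 22286266), with summits 1442 bp apart, and one of 45 tags (5.89-fold, 22347771 to 22348710). Their ranks were 27601, 17214 and 31333, so they held middle ranks in that list, and all had fewer tags than the list's median of 120. The single FLAG peak was EGFP_OK at 22209385 to 22210700, with 45 tags (32.8 to 60.2), a fold of 4.91 and rank 20905. Its summit was 73752 bp from the nearest H3K4me2 peak. Scaled by kept tags, a site like it would give 50.4 tags in the Etv6 library, where the smallest called peak had 18. In Pax6 it would give 11.1 tags, near the 10 of the smallest call. Of the 15513 EGFP_OK peaks with at least 45 tags, 23.7% had an Etv6 partner and 14.5% a Pax6 partner. Most such peaks thus had no partner in those lists.

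The last H3K4me2 peak of the Pou3f2 window was followed by 1.04 Mb without a peak of any list, from 22348337 to 23387648. Intervals at least that long made up 0.125% of the 125310 distances between neighbouring summits but 10.3% of the covered span. In the Pax6 list the empty stretch around the window was 6.09 Mb long, from 21806887 to 27897822, and 3.17% of the span lay in stretches as long. In the Etv6 list it was 3.30 Mb (9.19% of the span), and in the EGFP_OK list 2.25 Mb followed the peak in the window (6.90%).

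The Pou3f3 window lay at the end of 1.99 Mb without a peak in any list, from the EGFP_OK summit at 40913475 to the H3K4me2 summit at 42907817 on chromosome 1. Such long intervals were 34 of 125310, and 3.81% of the span lay in them. The flanking EGFP_OK peak had 40 tags at 7.87-fold. The flanking H3K4me2 peak (42907261 to 42908138) had 80 tags at 8.60-fold and lay just outside the window, with its summit 7817 bp from the edge. The nearest FLAG peaks beyond that edge were 255527 bp away for Etv6 (52 tags, 8.16-fold), 296593 bp for EGFP_OK (77 tags, 11.66-fold) and 372485 bp for Pax6 (23 tags, 11.48-fold). The RefSeq table lists the long non-coding RNA genes Pantr1 and Pantr2, with the synonyms linc-Brn1a and linc-Brn1b, as neighbours of Pou3f3. The first protein-coding gene after Pou3f3 there is Mrps9. The flanking H3K4me2 peak was not assigned to any of these genes. The lists hold called peaks only, so signal under the calling limit at Pou3f3 or Pou3f2 cannot be read from them.

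**Figure D5:**
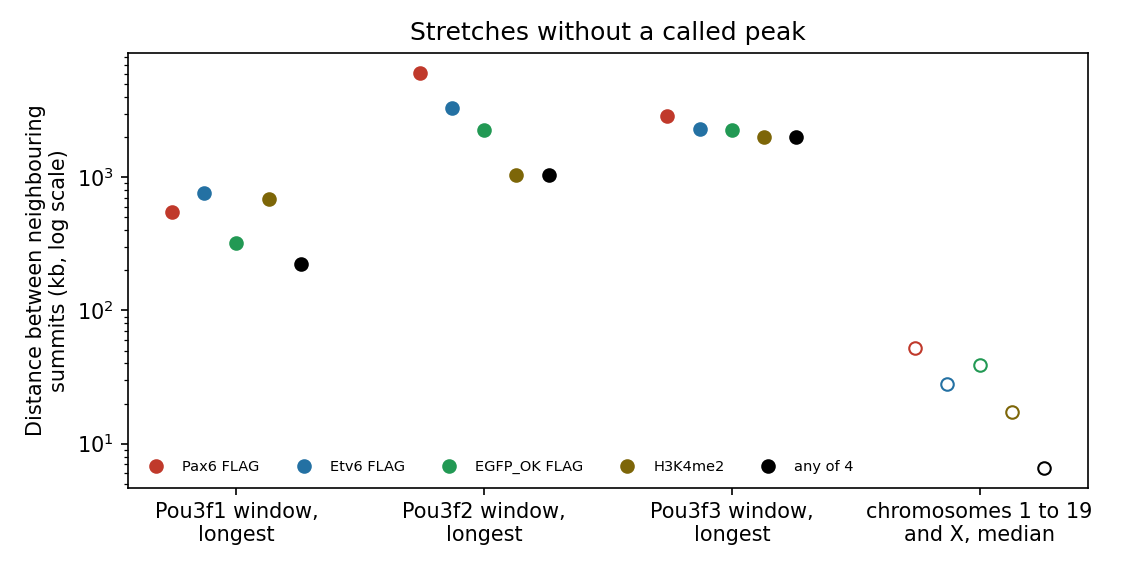
Longest distance in kb (log scale) between neighbouring summits that begins in, ends in, lies in or spans each window (filled), per library and over all libraries. Open points are the median distance over chromosomes 1 to 19 and X, a different measure from the longest distance. Over all libraries it was 223 kb at Pou3f1, 1039 kb at Pou3f2 and 1994 kb at Pou3f3, against a median of 6.58 kb.

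No annotation of mm9 was used, so the peaks were not assigned to promoters, introns or enhancers. By order in the RefSeq table, the nearest protein-coding neighbours after Pou3f1 are Utp11, Fhl3 and Sf3a3, and that before Pou3f2 is Fbxl4. Peaks of every list in the Pou3f1 and Pou3f2 windows, the shared FLAG sites included, may therefore belong to other genes.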

How the data were processed

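The tools MACS 1.4.2, BWA 0.6.2 and CASAVA 1.8.1 and the build mm9 stand in the submitters' processing notes, without their roles. Per the file headers, MACS 1.4.2 called peaks on each library alone, without a control, at p 1e-05, with 1 tag kept per position. The authors deposited, per peak, the count of tags after duplicate removal, without normalization. They also deposited a score, 10 times −log10 of the p-value, and a fold enrichment, a ratio of signal at the summit to nearby background. Scores and folds are the authors' own and only describe or rank peaks within a list.

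Here, peaks on chromosomes 1 to 19 and X were used. A window held a peak whose summit (start + summit − 1) lay in it. FLAG peaks were shared at an overlap of at least 1 bp, and a FLAG peak was in H3K4me2 when its summit was. Tiles of each window's length ran from the first to the last peak of a chromosome. Tag intervals are exact Poisson 95% intervals and cover counting error only. Overlap functions were tested on simulated lists. Python 3.11.15, numpy 2.4.6, pandas 2.3.3, scipy 1.17.1 and matplotlib 3.10.9 were used. Every peak in the windows is named, and the planned comparison of protein sequences was not run here. The members, motifs and rules were chosen with earlier results of these data known. Alternatives were a score of at least 100, equal list lengths, the middle 50% of each window, and other definitions of sharing.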

Additional observations from a re-analysis of the deposited data

How the results depend on the processing

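Of the 31 recomputed counts above 0, 10 stayed within 1.5 times and 21 moved. The other 44, at Pou3f2 and Pou3f3, were 0 and stayed 0, which shows no stability. No setting adds peaks, so counts of peaks could not rise from 0. Looser definitions of sharing or of lying in H3K4me2 can raise other counts where peaks are close. The FLAG summit at Pou3f2 lay 73752 bp from the nearest H3K4me2 peak and 296053 bp or more from Etv6 and Pax6 summits. Pou3f1 kept its 1 Pax6 peak in every setting. With a score of at least 100 in every list, Pou3f1 held 2 Etv6 and 0 EGFP_OK peaks, 2 FLAG peaks shared, 1 FLAG summit in H3K4me2 and 1 H3K4me2 peak with a FLAG summit, and Pou3f2 held 0 EGFP_OK peaks. This setting removes the 334-tag H3K4me2 peak. With 16604 peaks from each list, Pou3f1 held 2 Etv6, 1 EGFP_OK and 3 H3K4me2 peaks, 0 FLAG summits in H3K4me2 and 0 H3K4me2 peaks with a FLAG summit, and Pou3f2 held 0 EGFP_OK and 0 H3K4me2 peaks. In the middle 50% of each window, Pou3f1 held 1 Etv6, 1 EGFP_OK and 5 H3K4me2 peaks, 3 FLAG peaks shared, 3 FLAG summits in H3K4me2 and 0 H3K4me2 peaks with a FLAG summit, since the edge falls between the FLAG summits and the H3K4me2 summit of the first site. Pou3f2 then held 0 EGFP_OK peaks and 1 H3K4me2 peak. The other definitions of sharing and of lying in H3K4me2 kept 4 or 5 shared FLAG peaks and 5 FLAG summits at Pou3f1. The stricter score, the equal list lengths and the middle 50% remove peaks by construction. No paired analysis was possible because each group held 1 library. The Pax6 depth, 0.220 times that of Etv6, limits what its absences show.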
